A study of Mus musculus with 5 samples.

Results

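The angiogenic factors other than VEGF were followed through the cells of MMTV-PyMT breast tumors as 10 genes, found by symbol among the 31053 genes of every count matrix. They were the angiopoietins Angpt1 and Angpt2, their receptor Tek and its partner Tie1, the fibroblast growth factors Fgf1 and Fgf2, the platelet-derived growth factor chains Pdgfa and Pdgfb, apelin (Apln) and angiopoietin-like 4 (Angptl4). The tumors came from FVB/N-Tg(MMTV-PyVT)634Mul/J mice, which carry polyoma middle T antigen under the MMTV promoter, active in mammary epithelium. Mice received either an isotype IgG2a control antibody or B20-4.1.1, an antibody that binds mouse VEGF-A, each at 5 mg/kg by intraperitoneal injection, 2 times a week from 7 weeks of age for 6 weeks. Viable DAPI- cells of 15 tumors, 1 per mouse, were profiled by 3' single-cell RNA sequencing in 5 pools of 3 tumors marked by lipid oligonucleotides. Of the tumors, 6 in 2 pools had received the isotype and 9 in 3 pools B20-4.1.1, so that each pool held tumors of a single treatment and pool and treatment cannot be told apart.

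VEGF-A is the main growth signal of blood vessels, and the genes followed here belong to the systems that act beside it. Angpt1, usually made by perivascular and other stromal cells, activates the endothelial receptor Tek and keeps vessels quiet and tight, whereas Angpt2 is released by endothelial cells in growing vessels and mostly opposes it. Fgf1 and Fgf2 stimulate the growth of endothelial cells and fibroblasts, Pdgfb recruits pericytes to new vessels, and Pdgfa acts on Pdgfra-bearing stromal cells. Apelin marks sprouting endothelial tips, and Angptl4 is a secreted inhibitor of lipoprotein lipase that responds to hypoxia and fatty acids.

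After cells with fewer than 2500 unique molecular identifiers (UMIs, 1 per captured transcript), or more than the study's upper limit, were set aside, 19533 of 30340 deposited cells were kept. Each tumor held between 4014509 and 23726246 UMIs before this step, and between 84.3% and 97.6% of the oligonucleotide UMIs in a tumor's cells were those of its own set. The loss was uneven, with 7126 cells of isotype and 2981 of B20-4.1.1 tumors under the minimum. The median per deposited cell was 2192 to 2423 UMIs in the tumors of isotype pool 1 and 6034 to 6582 in those of isotype pool 2. In B20-4.1.1 tumors it ranged from 2819 to 9834.5. A total of 94 cell barcodes occurred in tumors of different pools and 0 in 2 tumors of the same pool. Cells were assigned to a class with UMIs of at least 3 of its markers and of fewer than 3 markers of every other class. T-like cells alone were allowed markers of natural killer cells. The gate gave 13568 epithelial-like, 2578 T-like, 1500 macrophage-like, 58 fibroblast-like and 18 endothelial-like cells. Markers of other classes thus remained, with Epcam in 23% of T-like and 20.8% of macrophage-like cells and Lyz2 in 10.1% of epithelial-like cells. The 8189 epithelial-like cells of isotype tumors and the 5379 of B20-4.1.1 tumors expressed Epcam in 99.9% of cells. Among the endothelial-like cells, Egfl7 was detected in 100% and Cdh5 in 94.4%. These genes were markers of the gate, so their detection is no separate check of the classes. Other markers were rarer, down to 0.14% for Krt5 in epithelial-like and 27.8% for Sox17 in endothelial-like cells. No cell passed as mural-like, the class of pericytes, a usual source of Angpt1. Only 2 cells held 3 markers of it, together with markers of another class. In 3 B20-4.1.1 tumors, number 3, 4 and 6, T-like cells made up 55.9%, 65.2% and 64.3% of the kept cells, whereas their share in the isotype tumors lay between 2.74% and 12%.

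The genes differed widely in how often they were captured. Pdgfa gave 4263 UMIs in 2877 kept cells, Angpt1 3152 in 2009, Angptl4 2760 in 1273 and Pdgfb 1727 in 969. Apln gave 719 UMIs and Fgf2 517. Counts were lower still for Fgf1 with 187, Angpt2 with 140, Tek with 94 and Tie1 with 64, and statements on these rest on few transcripts. Levels are given below as UMIs per 10000 UMIs of the cells concerned, with exact Poisson 95% intervals where counts of a class were pooled over tumors, which cover counting error only. Because 3' tags depend on each transcript's end, levels were compared between classes and tumors and not between genes.

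**Figure D1:**
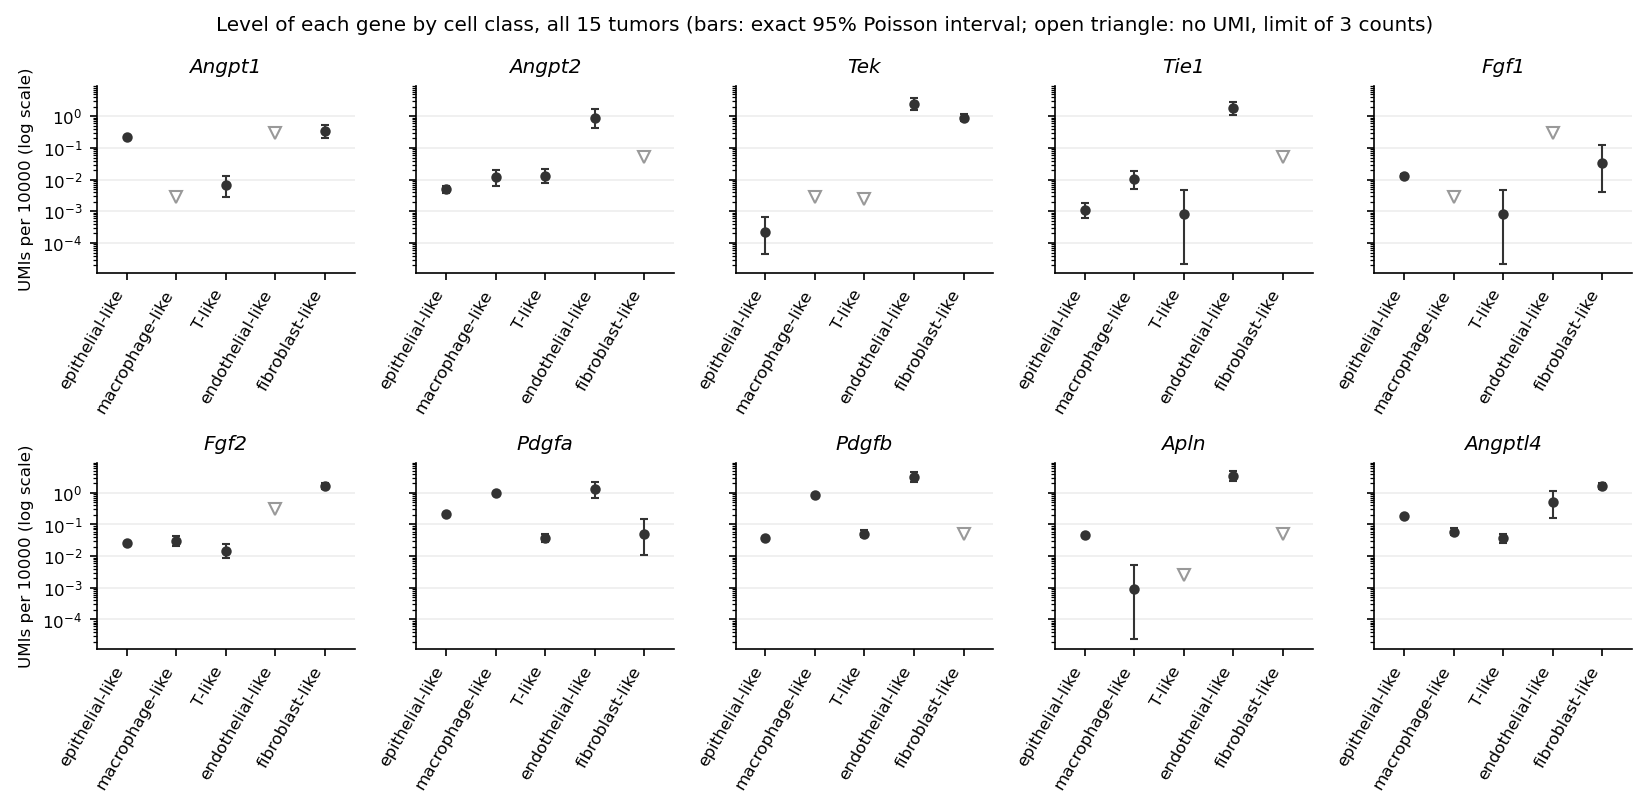
Pooled level of each gene in 5 cell classes, in UMIs per 10000 on a logarithmic axis, with exact Poisson 95% intervals as bars; an open triangle stands at the limit that a count of 0 allows where a class held no UMI. Tek lay highest in the 18 endothelial-like cells (2.51) and the 58 fibroblast-like cells (0.917), while Pdgfb was 0.848 in macrophage-like and 0.0361 in epithelial-like cells.

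The receptors of the angiopoietins were captured mostly outside the epithelium. Tek (chr4:94739289-94874976, plus strand, GRCm38), the tyrosine kinase receptor of Angpt1 and Angpt2, reached 2.51 UMIs per 10000 (1.62 to 3.71) in the endothelial-like cells and 0.917 (0.687 to 1.2) in the fibroblast-like cells. In epithelial-like cells it lay at 0.000225, and macrophage-like and T-like cells held 0 Tek UMIs. A count of 0 was taken to allow up to 3 counts over the class, or 0.00278 in the macrophage-like cells. The lower ends of the intervals lay at least 584-fold above this limit in the endothelial-like and at least 247-fold above it in the fibroblast-like cells, and later bounds against 0 were computed in the same way. Tie1 (chr4:118471191-118490061, minus strand), an endothelial receptor that pairs with Tek, was detected at 1.81 (1.07 to 2.86) in the endothelial-like cells, at 0.0102 in the macrophage-like class and at 0.00113 in the epithelial-like class, with 0 UMIs in the fibroblast-like cells.

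Tek transcripts in the fibroblast-like class came from cells without Pecam1 or Cdh5, which mark endothelium. Of the 58 fibroblast-like cells, 26 carried a total of 53 Tek UMIs, which was 56.4% of all Tek UMIs in kept cells, against 26.6% in the endothelial-like cells. All 26 of these cells also held Dcn and Col1a1 UMIs, 25 held Pdgfra and 12 Pdgfrb, while 0 held these endothelial genes or the pericyte gene Rgs5. Dcn, Col1a1, Pecam1, Cdh5 and Rgs5 were markers of the gate, so their counts are no separate check of what these cells are. Among all 58 fibroblast-like cells, 57 held Dcn, 58 Col1a1, 49 Pdgfra and 25 Pdgfrb, while 1 held Pecam1, 0 Cdh5 and 0 Rgs5. The gate markers thus did not set the cells with Tek apart from the class. The 26 cells came from 10 tumors, with 10 of them from B20-4.1.1 tumor 1, which also supplied 24 of the 58 fibroblast-like cells.

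Most of the captured Angpt1 UMIs lay in epithelial-like cells, the largest class. Angpt1 (chr15:42424723-42676977, minus strand) was found at 0.222 UMIs per 10000 in epithelial-like cells, which held 93.6% of its UMIs, and in fibroblast-like cells at 0.346 (0.211 to 0.535). Macrophage-like cells held 0 Angpt1 UMIs, so that its level was at least 76.8-fold higher in epithelial-like cells, and T-like cells lay at 0.00664. After every cell was thinned to 2500 UMIs, 5.45% of epithelial-like and 0.155% of T-like cells held an Angpt1 UMI. Without thinning, when the median depth was 8710.5 UMIs in epithelial-like and 4021 in T-like cells, 0.233% of the T-like cells did. Angpt2 (chr8:18690263-18741562, minus strand), the angiopoietin released by activated endothelium, gave 0.904 (0.413 to 1.72) in the endothelial-like cells, 0.0133 in T-like, 0.0121 in macrophage-like and 0.00503 in epithelial-like cells. The endothelial value rests on 9 UMIs in 3 of 18 cells. The share of cells with an Angpt2 UMI was 0.0811% in epithelial-like and 0.349% in T-like cells after thinning, so that Angpt2 in the epithelial-like cells was not distinguishable from background.

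The fibroblast growth factors followed different classes. Fgf2 (chr3:37348346-37410108, plus strand), a broad mitogen of stromal and endothelial cells, was at 1.61 (1.3 to 1.97) in fibroblast-like cells, 0.0306 in macrophage-like, 0.0251 in epithelial-like and 0.0149 in T-like cells. The 58 fibroblast-like cells held 18% of its UMIs and the epithelial-like cells 64.6%. Fgf1 (chr18:38838673-38929472, minus strand), which binds all FGF receptors, was 93% epithelial by UMIs, at 0.0131 in epithelial-like cells and 0 in macrophage-like cells, a difference of at least 4.03-fold. Neither Fgf1 nor Fgf2 gave a UMI in the endothelial-like cells.

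Apelin and Angptl4 shared an epithelial source with a stronger signal in rare stromal classes. Apln (chrX:48025146-48034853, minus strand), the ligand of the endothelial receptor Aplnr, reached 3.51 (2.45 to 4.89) in the endothelial-like cells against 0.046 in epithelial-like cells. The endothelial value rests on 35 UMIs in 5 of 18 cells, and 26 of these UMIs came from 3 cells of isotype tumor 3. The epithelial-like cells still held 85.1% of the Apln UMIs, and T-like cells held 0, which placed the epithelial level at least 17-fold above theirs. Angptl4 (chr17:33773750-33781830, minus strand) was at 1.64 (1.33 to 2.01) in fibroblast-like, 0.502 in endothelial-like, 0.182 in epithelial-like, 0.0584 in the macrophage-like and 0.0365 in the T-like class, with 87.6% of its UMIs in the epithelial-like cells. In the T-like cells, 1.55% held an Angptl4 UMI against 7.83% of the epithelial-like cells, and 0.892% against 3.63% after thinning.

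The PDGF chains were captured in macrophages as well as in the epithelium. Pdgfb (chr15:79995874-80014977, minus strand), the chain that draws pericytes to vessels, was at 3.21 (2.2 to 4.54) in the endothelial-like cells and at 0.848 (0.794 to 0.904) in the macrophage-like cells. The endothelial value rests on 32 UMIs in 5 of 18 cells, all of isotype tumors, and 23 of these UMIs were in 1 cell. The Pdgfb level was 0.0514 in the T-like and 0.0361 in the epithelial-like class, and the macrophage-like cells held 52.9% of its UMIs. A Pdgfb UMI was held by 1.81% of epithelial-like and 2.17% of T-like cells, or 0.671% and 1.09% after thinning. Over the whole epithelial-like class the share was thus not above that of a class not known for Pdgfb. These shares alone do not set the epithelial signal apart from background. Of the epithelial Pdgfb UMIs, 65.5% lay in a single cluster of cells, described below. Pdgfa, the chain that signals through Pdgfra alone, was at 1.31 in endothelial-like, 0.953 (0.896 to 1.01) in macrophage-like, 0.214 in epithelial-like and 0.0382 in T-like cells. A UMI of Pdgfa was present in 35.5% of the macrophage-like class and in 1.4% of the T-like class.

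Pdgfa (chr5:138976014-138997370, minus strand, GRCm38) had 2 promoter windows in RefSeq's table for GRCm38.p6, printed here because Pdgfa gave the smallest relative error of the treatment comparisons that follow. Each line gives the 250 bases before a transcript start, 5′ to 3′ on the minus strand, and capitals mark a match to the core letters of the hypoxia response element, searched as ACGTG and GCGTG on both strands.
Pdgfa, chr5:138994282-138994531: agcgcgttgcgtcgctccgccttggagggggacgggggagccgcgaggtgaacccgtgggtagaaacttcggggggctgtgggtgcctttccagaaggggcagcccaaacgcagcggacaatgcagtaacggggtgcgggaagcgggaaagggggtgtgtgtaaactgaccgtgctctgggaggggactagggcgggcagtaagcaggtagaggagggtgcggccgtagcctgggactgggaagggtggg
Pdgfa, chr5:138994945-138995194: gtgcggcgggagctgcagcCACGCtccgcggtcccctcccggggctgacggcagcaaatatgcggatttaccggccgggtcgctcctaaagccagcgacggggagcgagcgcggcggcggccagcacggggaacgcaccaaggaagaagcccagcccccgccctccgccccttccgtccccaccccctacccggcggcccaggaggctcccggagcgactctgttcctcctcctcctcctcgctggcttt
The window at 138994945 held 1 match, which began 231 bases before the start, and the other window held none. Their GC content was 72.4% and 66.4%, respectively, against a median of 52.4% over all windows, and 38.6% of the 32851 windows in the table held at least 1 match. Of the other genes, Fgf2, Tek, Tie1 and Apln had a window, and 1 match was found for Fgf2, 72 bases before its start. A match is a description of the letters only.

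Differences between classes were then tested with sums per tumor in edgeR, with the tumor as a block. Between epithelial-like and macrophage-like cells, 79.3% of the 11355 genes tested were called at an adjusted p under 0.05, and all 4 angiogenic factors that could be tested were among them. Pdgfa was lower in the epithelium than in macrophage-like cells by a log2 difference of -2.07 (SE 0.11, edgeR adjusted p = 1.92e-15) and Pdgfb by -4.35 (SE 0.26, adjusted p = 7.18e-14). Angptl4 was higher in epithelial-like cells by 1.64 (SE 0.24, adjusted p = 1.01e-06), and Angpt1 was higher by the bound given above. Against T-like cells, where 77.1% of genes were called, epithelial-like cells were higher in Angpt1 (log2 difference 5.12), Pdgfa (2.43), Angptl4 (2.40) and Apln, which had 0 T-like UMIs, and lower in Angpt2 (-1.68, edgeR adjusted p = 0.0111). The differences of Pdgfb (-0.56, edgeR adjusted p = 0.177) and Fgf2 (0.69, adjusted p = 0.234) did not pass. Between macrophage-like and T-like cells, where 66.9% of genes were called, Pdgfa (4.31) and Pdgfb (3.62) were higher in macrophage-like cells and Angptl4 (0.24, edgeR adjusted p = 0.602) did not pass. The order of levels was therefore macrophage-like, epithelial-like and T-like for Pdgfa. For Pdgfb, epithelial-like and T-like cells were not separated below macrophage-like cells, and for Angptl4 macrophage-like and T-like cells were not separated below epithelial-like cells.

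The question of the treatment comparison was whether blocking VEGF-A changed the other angiogenic factors. In epithelial-like cells of B20-4.1.1 tumors, Pdgfa, Pdgfb and Angptl4 were higher than in isotype tumors, while Angpt1, Apln, Fgf1 and Fgf2 did not pass the test. Of the 12247 genes tested in this class, 15.1% were called and 7.73% were called higher, and 3 of the 7 angiogenic factors tested were called, all higher. The median log2 difference was 0.493 over these 7 factors and -0.00632 over all genes tested. Because the factors were chosen with earlier results of these data known, these counts and medians do not test them as a group. The calls of Pdgfa, Pdgfb and Angptl4 rest on tumors as replicates, while tumors of a pool shared a library. Each is therefore given below also from limma voom, where the pool entered as a random block, and with counts summed per pool in edgeR. Angpt2, Tek and Tie1 had too few UMIs to be tested, with 49, 2 and 11 epithelial UMIs in isotype tumors and 18, 1 and 4 in B20-4.1.1 tumors.

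Pdgfa, a growth signal for Pdgfra-bearing fibroblasts, was 0.158 UMIs per 10000 in the lowest, 0.178 in the median and 0.207 in the highest isotype tumor. In the B20-4.1.1 tumors it was 0.222, 0.254 and 0.343. The treatments did not overlap, with 9 of 9 B20-4.1.1 tumors above every isotype tumor, which was so for 3.00% of the genes tested. The means were 0.182 ± 0.0206 (SD, n = 6) and 0.266 ± 0.0435 (SD, n = 9), and the log2 difference was 0.62 (SE 0.10, edgeR adjusted p = 0.00113). Pdgfa kept its call when the pool was a random block (0.66, limma adjusted p = 0.0404) and lost it with counts summed per pool (0.67, edgeR adjusted p = 0.362). In terms of cells, 11.8% to 14% of the epithelial-like cells of an isotype tumor and 14.2% to 27.6% of those of a B20-4.1.1 tumor held a Pdgfa UMI. After thinning to 2500 UMIs these ranges were 3.51% to 5.2% and 4.45% to 9.21%, and 8 of 9 treated tumors lay above the isotype range.

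Pdgfb showed the largest difference of the 7 factors on the log2 scale. Its level was 0.00922, 0.0194 and 0.0346 in the lowest, median and highest isotype tumor and 0.0358, 0.0528 and 0.138 in the B20-4.1.1 tumors. These values did not overlap either, although the highest isotype and the lowest treated tumor nearly met. The means were 0.02 ± 0.00971 (SD, n = 6) and 0.0638 ± 0.0347 (SD, n = 9), with a log2 difference of 1.75 (SE 0.31, edgeR adjusted p = 0.00234). The call was lost when the pool was a random block (1.62, limma adjusted p = 0.132) and with counts summed per pool (1.70, edgeR adjusted p = 0.273). In T-like cells of the same tumors, Pdgfb lay between 0.0563 and 0.107 with the isotype and between 0 and 0.179 with B20-4.1.1, so that the epithelial level was below the T-like range in the isotype tumors. Tyrobp, Fcer1g, Ctss and Laptm5, genes high in macrophage-like cells, were picked after the data were seen. Their transcripts gave 0.131 to 0.466 UMIs per 10000 in epithelial-like against 92 to 122 in macrophage-like cells. They are not specific to macrophages: Fcer1g was also a leading gene of a T-like cluster and Tyrobp of a neutrophil cluster. If all of their transcripts in epithelial-like cells came from macrophages, macrophage RNA would account for 5.71% to 19.3% of the epithelial Pdgfb of isotype tumors. For B20-4.1.1 tumors it would account for 0.708% to 5.7%, and RNA from other leukocytes was not tested. After thinning, the share of epithelial-like cells with a Pdgfb UMI was 0.415% in the median isotype tumor and 1.03% in the median treated tumor, with 7 of 9 treated tumors above the isotype range.

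Angptl4, the hypoxia-responsive lipase inhibitor, was 0.0566, 0.127 and 0.238 in the lowest, median and highest isotype tumor and 0.122, 0.271 and 0.405 in the B20-4.1.1 tumors. The treatments overlapped, with 5 of 9 treated tumors above the highest isotype tumor and 8 of 9 above the isotype mean. The log2 difference was 0.98 (SE 0.29, edgeR adjusted p = 0.0329). The call was lost when the pool was a random block (1.19, limma adjusted p = 0.191) and with counts summed per pool (1.11, edgeR adjusted p = 0.388). It was also lost without isotype pool 1 (0.54, edgeR adjusted p = 0.315), without B20-4.1.1 pool 2 (0.78, 0.122) and without B20-4.1.1 pool 3 (1.08, 0.0536), and the difference was 1.62 without isotype pool 2. A UMI of Angptl4 was present after thinning in 1.11% to 4.36% of epithelial-like cells of isotype and in 2.4% to 9.52% of those of B20-4.1.1 tumors.

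**Figure D2:**
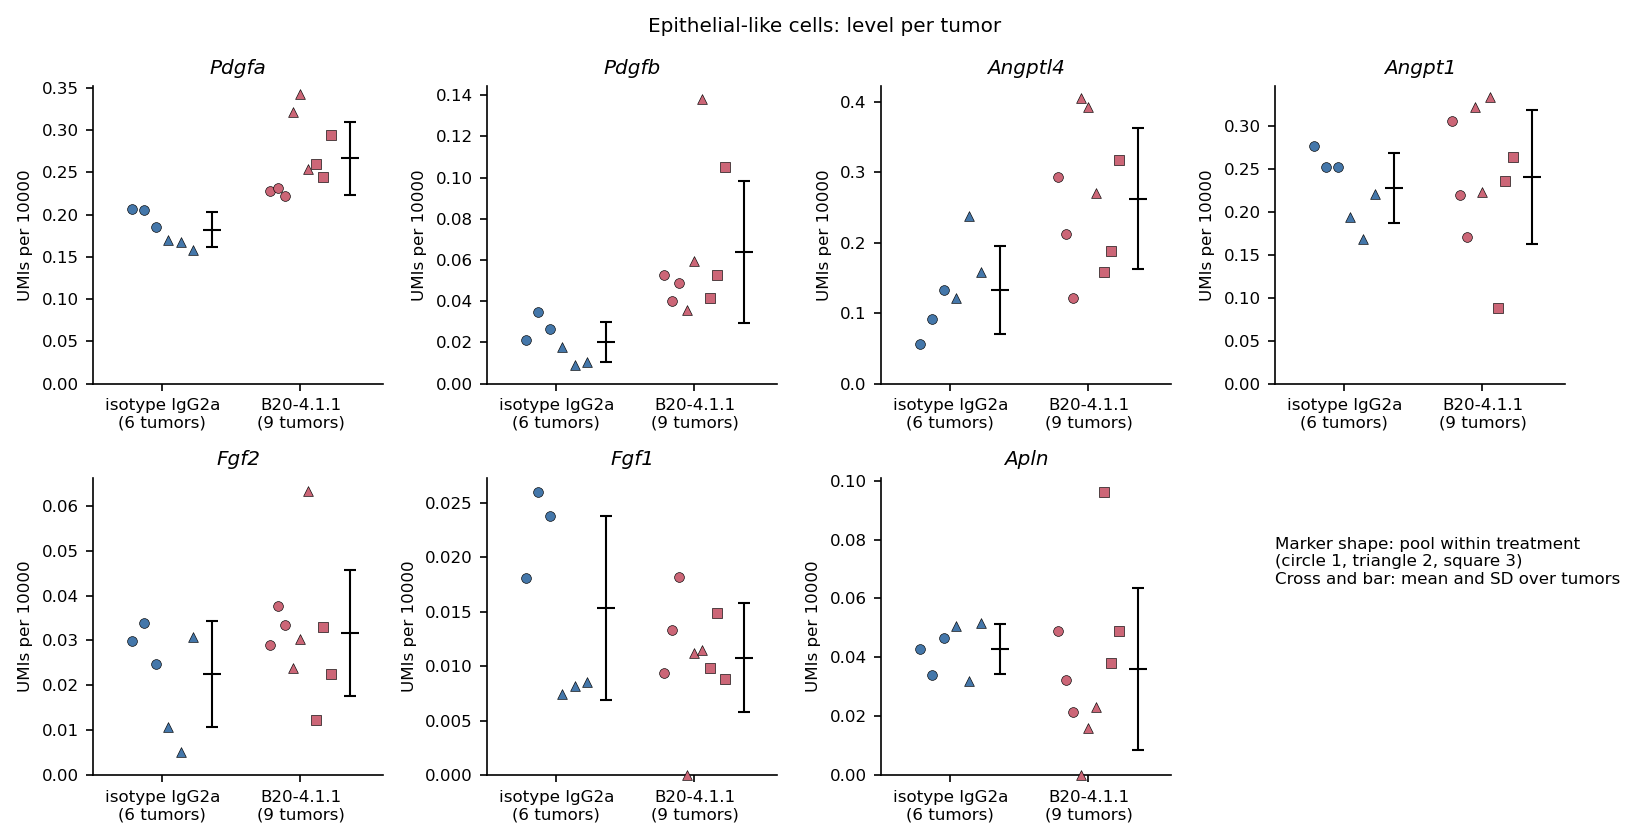
Level of the 7 tested genes in the epithelial-like cells of every tumor, in UMIs per 10000 on a linear axis from 0 with its own scale per panel. Points are tumors, the marker shape gives the pool (circle 1, triangle 2, square 3) and the cross with its bar the mean and SD. Pdgfa and Pdgfb of the 9 B20-4.1.1 tumors lay above the 6 isotype tumors, whereas Angpt1 spanned 0.0881 to 0.334 in B20-4.1.1 and 0.168 to 0.277 in isotype tumors.

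The remaining epithelial factors gave no call. Angpt1 was 0.168, 0.237 and 0.277 in the lowest, median and highest isotype tumor and 0.0881, 0.236 and 0.334 after B20-4.1.1 (log2 difference 0.11, SE 0.19, edgeR adjusted p = 0.718). Apln ranged from 0.0318 to 0.0515 with the isotype and from 0 to 0.0963 with B20-4.1.1 (log2 difference 0.06, SE 0.34, edgeR adjusted p = 0.928). The treated tumors thus enclosed the isotype tumors for both genes. Fgf2 gave medians of 0.0273 and 0.0304 (log2 difference 0.49, SE 0.34, edgeR adjusted p = 0.322), and Fgf1 medians of 0.0133 and 0.0112 (log2 difference -0.28, SE 0.31, edgeR adjusted p = 0.556). The pools of the isotype tumors stood apart in Fgf1, with 0.0181 to 0.026 in pool 1 and 0.0074 to 0.00849 in pool 2.

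**Figure D3:**
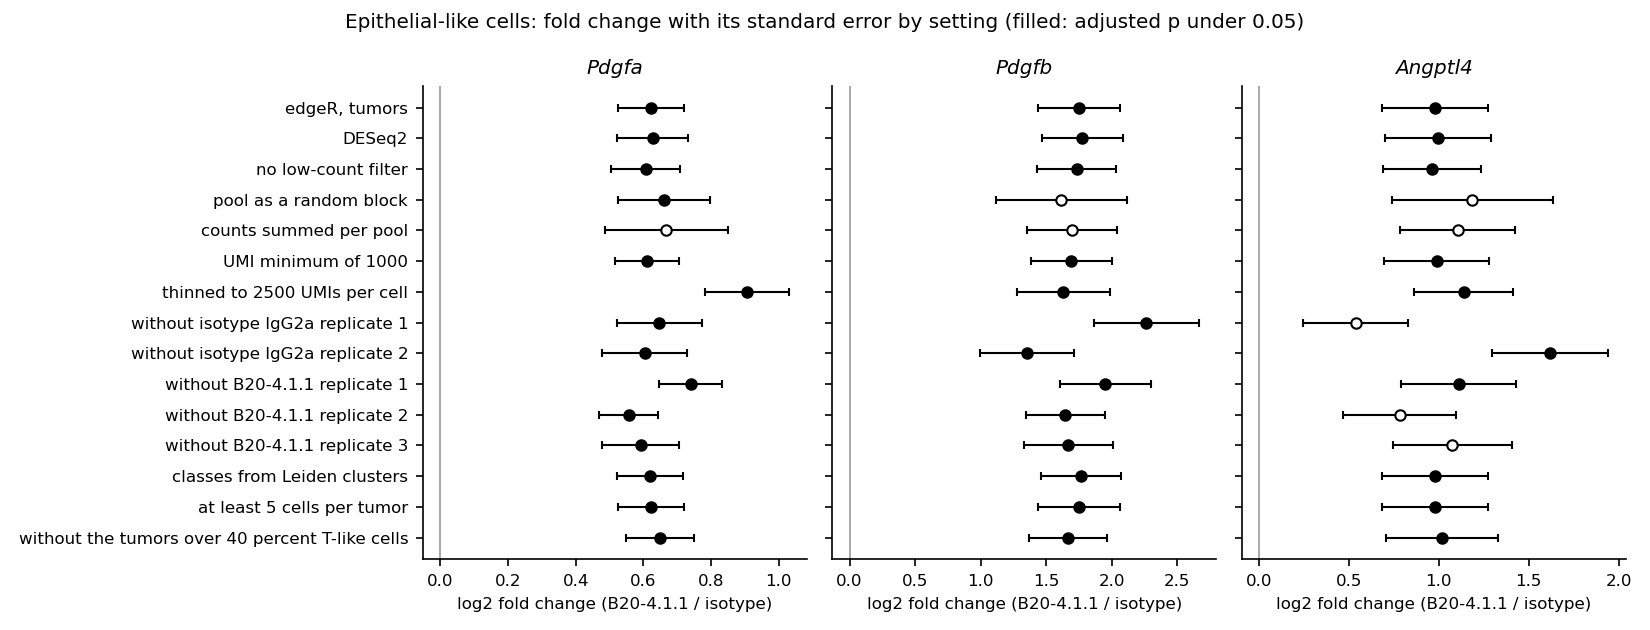
Log2 difference, B20-4.1.1 minus isotype, of Pdgfa, Pdgfb and Angptl4 in epithelial-like cells under 15 settings. Each point is 1 setting, the bar is its standard error, and filled points mark an adjusted p under 0.05. All 3 genes lay above 0 in every setting drawn, with Pdgfa at 0.62 and Pdgfb at 1.75 in the edgeR fit by tumor, and with open points where counts were summed per pool. The setting of at least 5 cells per tumor repeats the edgeR fit by tumor, since every tumor held at least 76 epithelial-like cells.

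In macrophage-like cells the PDGF chains gave no call. Only 0.0730% of the 6845 genes tested in this class were called, and 0 of the 2 angiogenic factors tested by edgeR, with 1 at an unadjusted p under 0.05 and 0 called by DESeq2. Pdgfa was 0.437, 0.901 and 1.09 in the lowest, median and highest isotype tumor and 0.441, 1.17 and 1.27 after B20-4.1.1, with 7 of 9 treated tumors above the isotype range (log2 difference 0.50, SE 0.19, edgeR adjusted p = 0.384). Pdgfb was 0.498, 0.882 and 1.22 against 0.373, 0.685 and 1.3 (log2 difference -0.20, SE 0.23, edgeR adjusted p = 0.822), so that its values overlapped over most of their range. In T-like cells, where 0.0174% of genes were called, no angiogenic factor had enough UMIs to be tested.

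Whether the treatment effect differed between epithelial-like and macrophage-like cells was tested directly. The test called 0.0440% of 11355 genes and 1 of 4 angiogenic factors, Pdgfb, whose effect was higher in epithelial-like cells by 1.91 on the log2 scale (SE 0.35, edgeR adjusted p = 0.0330). The call was lost without isotype pool 1 (2.10, edgeR adjusted p = 0.122), without B20-4.1.1 pool 3 (1.52, 0.109) and after thinning (1.78, 0.0598). For Angptl4 the difference of effects was 1.08 (SE 0.50, edgeR adjusted p = 0.520) and for Pdgfa 0.10 (SE 0.20, adjusted p = 0.936). Angpt1 was also in the fit, but macrophage-like cells held 0 of its UMIs, so its difference of effects cannot be read and is not given.

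**Figure D4:**
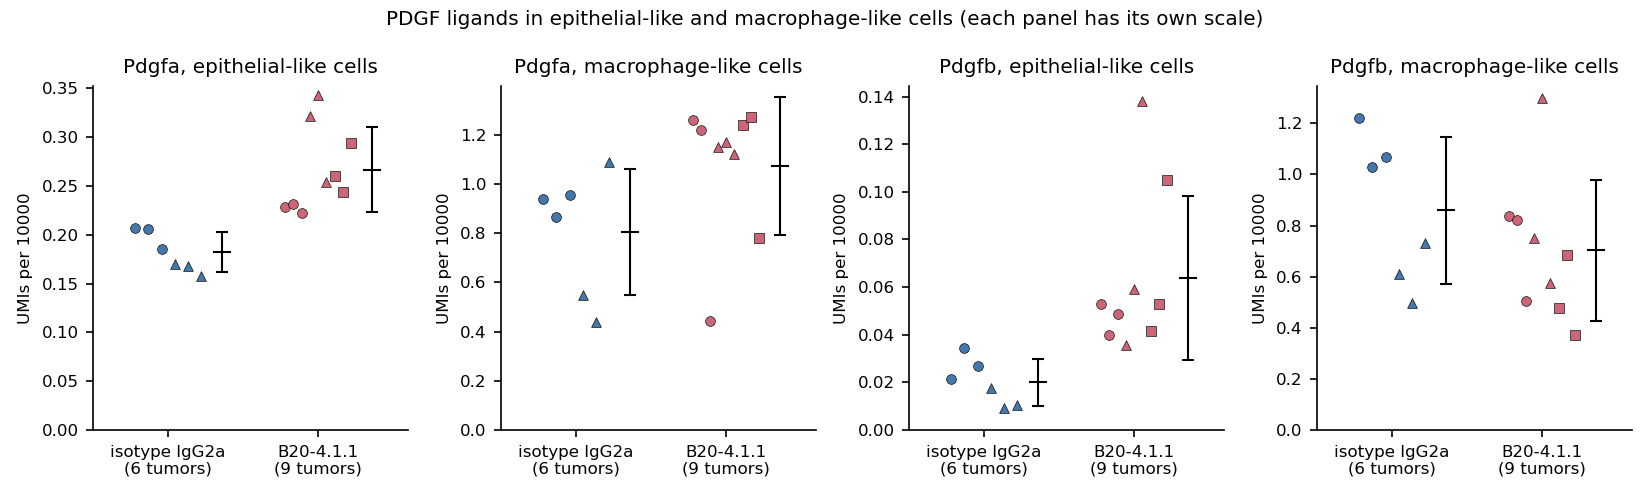
Levels of Pdgfa and Pdgfb by tumor in epithelial-like and macrophage-like cells, in UMIs per 10000 on linear axes with their own scales. Points are tumors, marker shapes are pools and the cross with its bar is the mean and SD. Pdgfb was 0.0358 to 0.138 in epithelial-like cells of B20-4.1.1 tumors against 0.00922 to 0.0346 in isotype tumors, and 0.373 to 1.3 against 0.498 to 1.22 in macrophage-like cells.

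Within the epithelium, few cells held Pdgfb. Of the 13568 epithelial-like cells, 246 held a Pdgfb UMI, 23 held 5 or more and the most in 1 cell was 20. The 136 cells with the most Pdgfb UMIs, 1% of the class, held 77.1% of them. This share depends on how many cells held a UMI at all, and it was 82.2% for Fgf1, 56.3% for Fgf2, 45.3% for Apln, 39.8% for Angptl4, 21.5% for Angpt1 and 19.1% for Pdgfa. Fgf1, in 167 cells, reached at most 2 UMIs in a cell, and Fgf2, in 282 cells, at most 4. Angptl4 was found in 1062 epithelial-like cells with up to 21 UMIs, Pdgfa in 2083 with up to 13 and Angpt1 in 1880 with up to 14.

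Clusters of cells, described here without a test, placed these transcripts in different parts of the epithelium. Cluster 7, led by S100a6, Hspb1, Krt8 and Anxa1, comprised 9.4% of the epithelial-like cells and held 65.5% of their Pdgfb UMIs and 29.4% of their Pdgfa UMIs. In it, 9.8% of the cells held a Pdgfb UMI, against 2.17% of the T-like cells, and 37.2% a Pdgfa UMI, all without thinning. T-like cells were shallower than the epithelial-like class, with medians of 4021 and 8710.5 UMIs, and no thinned share was computed per cluster. The Pdgfb level was 0.244 UMIs per 10000 in cluster 7 and 0.0514 in T-like cells. Angptl4 was highest in cluster 10, led by Spp1, S100a6, Mfge8 and Lcn2, at 0.878 UMIs per 10000 and with 32.6% of the epithelial Angptl4 UMIs, followed by 0.564 in cluster 18 and 0.406 in cluster 7. Angpt1 was highest in cluster 2, led by Igfbp5, Spp1, Csn3 and Trf, genes of milk-secreting epithelium among them, at 0.689 and with 29.7% of its epithelial UMIs. Fgf2 reached 0.0725 in cluster 10, and Apln 0.103 in cluster 12, which was led by the proliferation genes Hmgb2, Pclaf, Mki67 and Birc5.

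**Figure D5:**
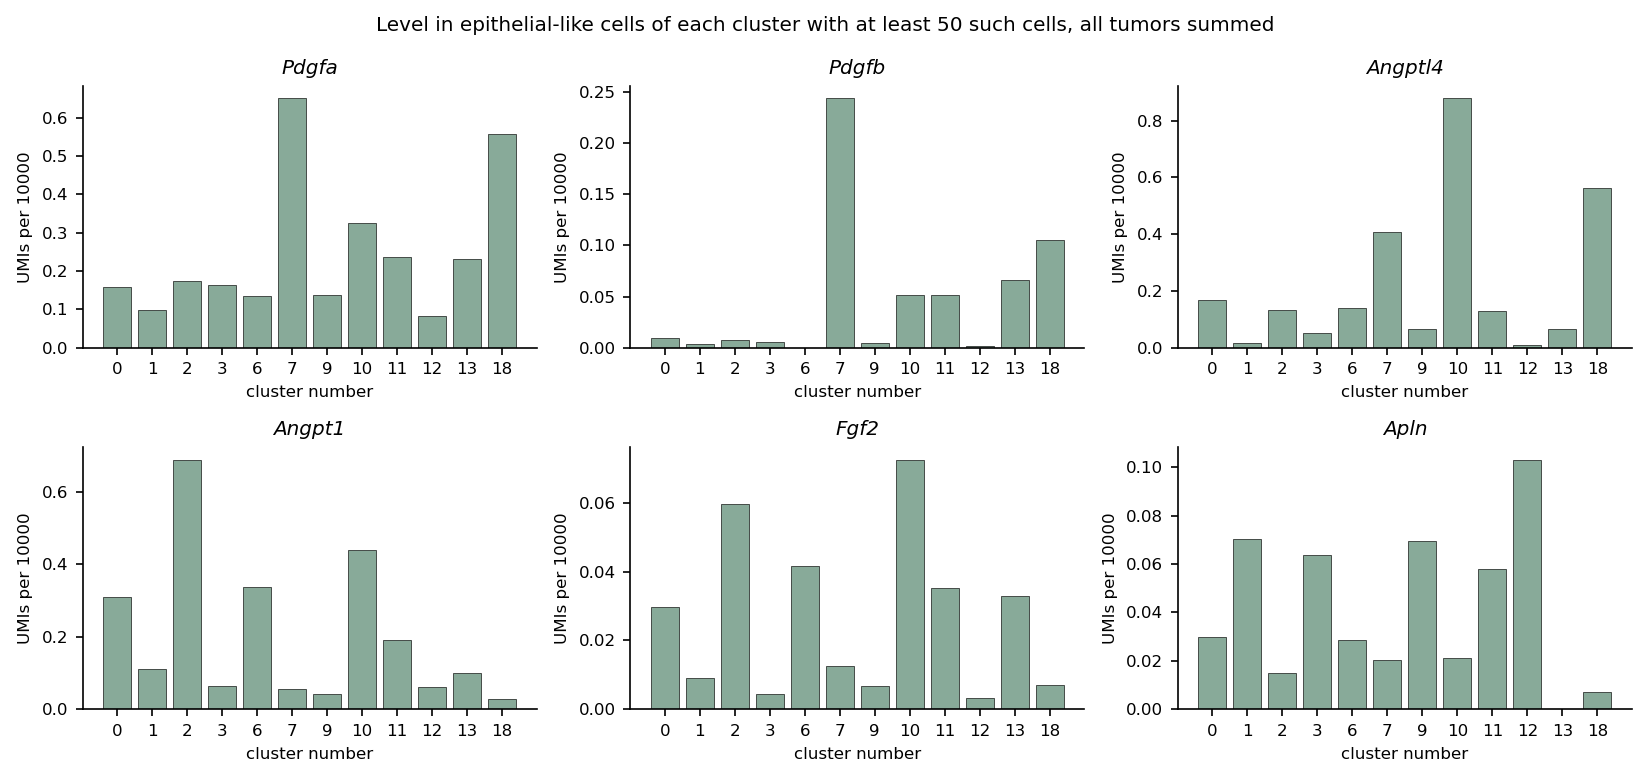
Level of 6 genes in the epithelial-like cells of each cluster with at least 50 such cells, summed over all tumors, in UMIs per 10000 on linear axes from 0 with their own scales. Pdgfb was at 0.244 in cluster 7, Angptl4 at 0.878 in cluster 10 and Angpt1 at 0.689 in cluster 2, the highest value of each.

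Inside the cluster with the highest level of Pdgfb, Pdgfa or Angptl4, the treatments overlapped more than over the whole class. Levels inside a cluster rest on fewer cells per tumor, and how far this widened their spread was not tested. In cluster 7, Pdgfb was 0.0493, 0.133 and 0.404 in the lowest, median and highest of 6 isotype tumors and 0.194, 0.3 and 0.874 in 8 B20-4.1.1 tumors with at least 20 such cells, and 2 of these 8 lay above the isotype range. Outside it, the medians were 0.0117 and 0.0126. Pdgfa in cluster 7 had medians of 0.544 and 0.801, and outside it of 0.152 and 0.198. Treated tumors above the isotype range of Pdgfa were 4 of 8 inside and 5 of 9 outside. For Angptl4 in cluster 10 the median was 1.01 with the isotype and 0.825 with B20-4.1.1, and outside it 0.0937 and 0.222. Since the clusters were chosen after their values were seen, these values were given no test.

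Endothelial-like cells, the usual target of the angiopoietins and apelin, were too few for a comparison by tumor. There were 9 from 5 isotype and 9 from 5 B20-4.1.1 tumors, and their mean share of kept cells was 0.0971% ± 0.0911 (SD, n = 6) and 0.0901% ± 0.117 (SD, n = 9, exact permutation p = 0.911, two-sided). Apln gave 30 UMIs in 4 of the isotype cells (5.97 per 10000, 4.03 to 8.53) and 5 UMIs in 1 of the B20-4.1.1 cells (1.01, 0.329 to 2.36). Of the 30 UMIs, 26 came from 3 cells of isotype tumor 3, and the other 6 isotype cells held 4 (1.06 per 10000). Pdgfb gave 32 UMIs in 5 isotype cells (6.37 per 10000, 4.36 to 8.99) and 0 in the B20-4.1.1 cells, which allows up to 0.608. Of these 32 UMIs, 23 came from a single cell of isotype tumor 5, and 3.16 per 10000 remained without that tumor.

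The endothelial receptors were present under both treatments. Tek gave 17 UMIs in 7 of 9 isotype cells (3.38 per 10000) and 8 in 5 of 9 B20-4.1.1 cells (1.62). Tie1 gave 6 UMIs in 4 cells (1.19) and 12 in 7 cells (2.43). Angpt2 gave 5 UMIs in 1 cell and 4 in 2 cells. With so few cells per group, these values describe the cells captured. One further cell of isotype tumor 3, with UMIs of 10 endothelial markers and of another class, held 24 of the 140 Angpt2 UMIs of all kept cells, with 14 of Apln and 10 of Pdgfb.

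Over all kept cells none of the 8 factors tested passed, and the tumors also differed in their makeup of cell classes. In this fit 4.83% of 13342 genes were called by edgeR, and 0 of the 8 factors, with 2 at an unadjusted p under 0.05 and 1 called by DESeq2. Tek was 0, 0.0021 and 0.00755 UMIs per 10000 in the lowest, median and highest isotype tumor and 0.00217, 0.00958 and 0.0214 in the B20-4.1.1 tumors. Although 7 of 9 treated tumors lay above the isotype range, the log2 difference of 2.00 (SE 0.57) had an edgeR adjusted p = 0.0532, and DESeq2 gave 2.04 with an adjusted p = 0.0126. Fibroblast-like cells, which held most Tek UMIs, made up 0.105% ± 0.0984 (SD, n = 6) of isotype and 0.524% ± 0.612 (SD, n = 9) of B20-4.1.1 tumors (exact permutation p = 0.0667, two-sided, and 0.1 over pools, the smallest that 10 ways allow). Within fibroblast-like cells, Tek gave 2 UMIs in 10 isotype cells (0.2 per 10000) and 51 in 48 B20-4.1.1 cells (1.07), of which 21 came from tumor 1. The sum over all kept cells does not by itself part the number of fibroblast-like cells from their Tek level, and how much each contributed was not tested.

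The other factors over all kept cells overlapped between the treatments. Angptl4 had medians of 0.117 and 0.198 (log2 difference 0.78, SE 0.35, edgeR adjusted p = 0.161) and Pdgfa of 0.233 and 0.283 (0.30, SE 0.17, edgeR adjusted p = 0.246). Without the 3 tumors rich in T-like cells, left out after the data were seen, Pdgfa was called at 0.47 (edgeR adjusted p = 0.0219). Fgf2 (0.56), Apln (-0.40), Fgf1 (-0.43), Angpt1 (-0.05) and Pdgfb (0.04) did not pass in the edgeR fit. With isotype pool 1 or 2 left out, these became 0.81 and -0.49 for Pdgfb, 0.24 and -0.91 for Fgf1 and 0.92 and 0.23 for Fgf2, and Apln was -0.03 without B20-4.1.1 pool 2 and -1.17 without pool 3.

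Epithelial-like cells with and without a UMI of Car9, the carbonic anhydrase that hypoxia induces, were compared within tumors after the data were seen. The 1140 cells with a Car9 UMI had a median depth of 11509.5 UMIs and the others of 8466.5, and 6 isotype and 7 B20-4.1.1 tumors had enough of both. Of the 11217 genes tested, 4.64% were called, and of 6 angiogenic factors 1, Angptl4. Its level was 0.0368, 0.115 and 0.192 in the lowest, median and highest tumor among cells with Car9 and 0.0591, 0.165 and 0.439 among cells without. It was lower with Car9 in 10 of 13 tumors, with a log2 difference of -0.59 (SE 0.17, edgeR adjusted p = 0.0375). After thinning, with 6 isotype and 5 B20-4.1.1 tumors, it was not called (-0.51, edgeR adjusted p = 0.712). The thinned fit was shifted as a whole, with a median of -0.170 over all genes tested and 30.7% of them above 0. Leaving out isotype pool 2 (-0.53, 0.176), B20-4.1.1 pool 1 (-0.59, 0.114), pool 2 (-0.47, 0.101) or pool 3 (-0.57, 0.0844) also ended the call of Angptl4. Angpt1 differed by -0.50 (SE 0.16, edgeR adjusted p = 0.0718), Apln by 0.25 (0.722), Pdgfa by 0.15 (0.460), Pdgfb by -0.03 (0.995) and Fgf2 by -0.26 (0.828).

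The partners of these factors were followed as a list of 29 other ligands, receptors and cofactors. In epithelial-like cells, where 15.1% of all genes were called, 1 of the 12 tested was higher, Lmf1, a maturation factor of lipoprotein lipase (log2 difference 0.39, edgeR adjusted p = 0.0157), and 0 were lower. Of 20 other angiogenic regulators, 3 of the 13 tested were called. Adm, the vasodilator adrenomedullin, was higher (1.16, edgeR adjusted p = 0.00807), and Thbs2, a thrombospondin that restrains vessel growth (-1.24, adjusted p = 0.00805), and Notch1 (-0.53, adjusted p = 0.0227) were lower. When limma took the pool as a random block, these 4 calls were lost, with adjusted p of 0.160 for Lmf1, 0.128 for Adm, 0.197 for Thbs2 and 0.249 for Notch1. Without isotype pool 1, Lmf1 (0.18), Adm (0.89) and Notch1 (-0.11) also lost their call in edgeR, as did Lmf1 and Notch1 without B20-4.1.1 pool 2 (0.38 and -0.51) or pool 3 (0.38 and -0.47). Over all kept cells, where 4.83% of genes were called, Fgfrl1 (-0.68, edgeR adjusted p = 0.0416) was the call among 15 partners tested and Notch1 (-0.51, adjusted p = 0.0406) among 18 regulators, both lower. Both lost their call when the pool was a random block (limma adjusted p = 0.607 and 0.560), with counts summed per pool, and without isotype pool 1 (-0.41 and -0.16), B20-4.1.1 pool 1 (-0.73 and -0.60) or B20-4.1.1 pool 2 (-0.58 and -0.48). In macrophage-like cells, edgeR called 0 of 4 partners and 0 of 5 regulators.

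The same lists were compared between the classes, where most genes tested were called. Against macrophage-like cells, with 79.3% of genes called, epithelial-like cells were higher in Fgfr2 (log2 difference 4.35), Fgfrl1 (3.36), Fgfr1 (2.09), Pdgfc (1.82) and Lmf1 (0.91) and lower in Lpl (-4.56), Pparg (-3.72) and Ppard (-1.12), so that all 8 partners tested were called. Among 13 regulators, 9 were higher, led by Ephb4, Timp3, Ptn, Met, Edn1 and Efnb2, and 4 lower, Hgf, Ang, Calcrl and Jag1. Against T-like cells, with 77.1% of genes called, epithelial-like cells were higher in Pdgfc, Fgfr2, Fgfr1, Fgfrl1, Lpl and Lmf1 and in 10 regulators led by Ptn, Ephb4, Met, Timp3, Edn1 and Thbs1, and lower in Calcrl (-2.90). With 66.9% of genes called between them, macrophage-like cells were higher than T-like cells in Lpl, Pdgfc, Fgfr1, Ppard and Lmf1 and in Hgf, Ang, Thbs1 and Jag1, and lower in Notch1 (-0.38). With Car9, where 4.64% of genes were called, Fgfr2 (-2.09), Ptn (-3.19) and Met (-0.25) were lower and Adm (1.65) and Thbs1 (0.45) higher in epithelial-like cells, of which Adm and Ptn were called after thinning.

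The genes whose log2 level in epithelial-like cells most resembled each factor over the 15 tumors are given as a description, with Pearson's r and, in brackets, r within treatments. For Pdgfa they were Gabarapl1 at 0.95 (0.76), Ly6a at 0.93 (0.78) and Cap1 at 0.92 (0.75). For Pdgfb they were Syngr2 at 0.89 (0.72), Wbp2 at 0.89 (0.65) and Zfp467 at 0.87 (0.72), so that r fell within treatments for both PDGF chains. For Angptl4 they were Pnpla2, a triglyceride lipase, at 0.90 (0.81), Clu at 0.89 (0.80) and Nfe2l2 at 0.88 (0.81). Angpt1 was nearest to Lipa at 0.89 (0.90), Nqo1 at 0.87 (0.90) and Meltf at 0.86 (0.86), with no loss within treatments. Apln was nearest to Rfc1, Trmt10a and Mia2, Fgf1 to Vps52, Crtc3 and Ebag9 and Fgf2 to Ldah, Gstt2 and Osmr, all between 0.81 and 0.94. Over all kept cells, Tek was nearest to the fibroblast gene Dcn at 0.81 (0.58), Ubxn8 and Bcl10, and Pdgfb to Ccrl2, Tep1 and the macrophage gene Cd68 at 0.89 (0.89). There, Pdgfa was nearest to Grn, Dusp3 and Cd63, Angptl4 to Clu, Tnfrsf1a and Anxa2, Angpt1 to Nqo1, Osgin2 and Ifnar2, Apln to Dusp7, Tgfb2 and Pgd, Fgf1 to Twsg1, Ube4b and Abca3 and Fgf2 to Grip2, Gstt2 and Kiz. The tumors share libraries and differ in depth and in cell makeup, which such values also follow.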

How the data were processed

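Deposited files held UMI counts per gene and cell, 1 filtered matrix per tumor. The authors made these counts with bcl2fastq and Cell Ranger on the mm10 build, and analysed them in Seurat 4.3.0, per the submitters' processing notes and methods; the counting settings are not given in the sources used here. The chemistry reads 3' ends, so that isoforms were not separated. The deposited matrices also held 12 oligonucleotide features, which were used only to check the tumors. Hypoxia classes of the tumors were not used here, since the labels do not give them.

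From the counts, cells were kept that had 2500 UMIs or more, no more than the study's upper limit of UMIs, and a mitochondrial share of 20% or less. The upper limit was the treatment of doublets, together with the gate. The gate set aside cells with at least 3 markers of more than 1 class (1193 cells, with 277 of no class). The study's further filter on housekeeping genes was not applied. Scanpy 1.11.5 and leidenalg 0.10.2 gave 22 clusters from 2500 variable genes and 16 components. Counts were summed per tumor and class (at least 20 cells) and tested with edgeR 4.0.16 by the quasi-likelihood test, after its filter on low counts, with Benjamini-Hochberg adjustment over all genes tested. A tumor was the replicate. Two-sided exact permutation tests compared class shares. Alternatives were DESeq2 1.42.0, no filter on low counts, pool as a random block (limma 3.58.1, statmod 1.5.0), counts summed per pool, a UMI minimum of 1000, thinning to 2500 UMIs, leaving out each pool, classes from clusters, at least 5 cells per tumor and, chosen after seeing the data, leaving out the tumors with over 40% T-like cells. The Car9 comparison was also added then. Scripts were tested on simulated data, in R 4.3.3 and Python 3.11.15.

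The members and lists were chosen with earlier results of these data known. All 10 factors are named, further list genes are named where they were called, up to 6 per direction, and the 3 genes most like each tested factor over tumors are named among genes with an average log2 CPM of at least 4. No gene of these lists was a class marker. Gene positions are from GENCODE for GRCm38, in which 31011 of the 31053 gene identifiers were found.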

Additional observations from a re-analysis of the deposited data

Results flagged for a closer look

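A pair of tumors stood apart from the others of their treatment in Tek over all kept cells. Isotype tumor 3 was at 0.00755 UMIs per 10000 (10 UMIs), with the next isotype tumor at 0.00252, and B20-4.1.1 tumor 1 was at 0.0214 (25 UMIs), with the next at 0.0112. The latter tumor supplied 24 of the 58 fibroblast-like cells. Apln over all kept cells was highest in B20-4.1.1 tumor 7, at 0.0876 (121 UMIs), with the next treated tumor at 0.0451. Fgf2 in epithelial-like cells was 0.0634 in B20-4.1.1 tumor 6, with the next at 0.0377, a value that rests on 11 UMIs in 158 cells of a tumor rich in T-like cells. Pdgfb in macrophage-like cells was 1.3 in B20-4.1.1 tumor 5, with the next at 0.838, from 79 UMIs in 64 cells. These 5 tumors were picked out because the gap to their nearest neighbor took up more of the group's range than is usual by Dixon's test, among 34 groups of tumors looked at, and chance alone picks out about 1 in 20 groups.

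The effect of B20-4.1.1 on Pdgfb was larger in the epithelial-like class than in the macrophage-like class, by 1.91 on the log2 scale in a direct test of the difference (edgeR adjusted p = 0.0330). The call was lost after thinning (adjusted p = 0.0598), without isotype pool 1 (0.122) and without B20-4.1.1 pool 3 (0.109), and no fit with the pool as a block was run for this difference.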

How the results depend on the processing

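Pool and treatment cannot be told apart in this design, and fits that count tumors as replicates treat tumors of 1 pool as independent. The number of factors called in epithelial-like cells was 3 by tumor, 1 with the pool as a random block (Pdgfa) and 0 with counts summed per pool. No paired analysis was possible because replicate numbers only name the pools of each treatment, which hold different mice. Over all kept cells the number was 0, and it was 1 by DESeq2 (Tek), 1 without the tumors rich in T-like cells (Pdgfa) and 0 to 3 with a pool left out, the 3 being Angpt2 (-1.56), Angptl4 (1.46) and Fgf1 (-0.91) without isotype pool 2. Without that pool Fgf1 was also called in epithelial-like cells (-0.78, edgeR adjusted p = 0.0351). Between epithelial-like and macrophage-like cells, 7 factors were called without a filter on low counts and 4 with it. The number of factors whose treatment effect differed between these classes was 1, and it was 0 after thinning and 0 to 1 with a pool left out. For Car9 it was 1, 0 after thinning and 0 to 1 with a pool left out; Angpt1 (-0.62, edgeR adjusted p = 0.0385) was the call without B20-4.1.1 pool 3. Pdgfa, Pdgfb and Angptl4 in epithelial-like cells stayed above 0 under the alternatives run, whereas Fgf1 turned to 0.24 over all kept cells and 0.48 in epithelial-like cells without isotype pool 1. The count of all genes called in epithelial-like cells, 1853, was 45 with the pool as a random block, 0 by edgeR with counts summed per pool (1393 at an unadjusted p under 0.05), 959 after thinning, 406 and 5533 without isotype pools 1 and 2, and 1062 and 1131 without B20-4.1.1 pools 2 and 3. Over all kept cells it was 645, against 1867 by DESeq2, 333 without the filter on low counts, 0 with either treatment of pools (1091 and 1075 at an unadjusted p under 0.05), 132 after thinning, 5 and 3521 without isotype pools 1 and 2, and 313, 156 and 1773 without B20-4.1.1 pools 1, 2 and 3. In macrophage-like cells it was 5 and ranged from 0 to 552 over the alternatives, with 39 by DESeq2 and 552 without isotype pool 2. Depth limited Tek, Tie1 and Angpt2, which could not be tested in epithelial-like cells, and 18 endothelial-like cells allowed no comparison by tumor.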
